A study of Mus musculus with 28 samples.

Results

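Slc19a2, Rap2b, Csrnp2, Dennd2c and Trim11 are 5 of the 17097 genes that a single gene symbol names on these arrays. They were selected on measured values, namely the difference between p53-/- and WT mouse embryonic fibroblasts (MEFs) in the change after H2O2, read with the treatment labels of the p53-/- arrays exchanged. The study exposed MEFs of 13.5-day embryos, at passage 2, to 400 μM H2O2 or to 0.25 μg/ml of doxorubicin (Doxo) for 4 h according to the sample labels, and RNA was hybridized to Affymetrix arrays. The 28 arrays form 8 groups. They comprise p53-/- cells with H2O2 and untreated (4 arrays each), p66-/- cells with H2O2 (4), with Doxo (2) and untreated (4), and WT cells with H2O2 (4), with Doxo (2) and untreated (4). The p53-/- cells lack the p53 gene in the whole animal, the p66-/- cells lack the longest protein of the Shc1 gene, and no p53-/- cells were exposed to Doxo. The labels give the strain as C57Bl/6, the paper as sv129. Replicates are independent preparations of MEFs, and no array measures single cells, so that fewer responding cells and a smaller response per cell cannot be told apart.

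p53 is a transcription factor that is kept low in unstressed cells and accumulates after DNA damage, when it binds its response elements and switches on genes of cell cycle arrest, death, repair and metabolism. p66 raises the cell's own production of peroxide and is known for its part in cell death after oxidative stress. Slc19a2 encodes the high-affinity thiamine (vitamin B1) transporter THTR-1, whose loss in humans causes thiamine-responsive megaloblastic anaemia, and has been described as a p53 target. Rap2b is a small GTPase of the Ras family, described as a p53 target in human cells. Csrnp2 belongs to a family of cysteine- and serine-rich nuclear proteins, Dennd2c carries a DENN domain and, in human cells, activates the GTPase Rab9, and Trim11 is a ubiquitin ligase of the tripartite motif (TRIM) family.

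The p53 response element is built from a 10-base consensus motif that usually occurs in pairs. In RefSeq promoters (GRCm38.p6, 250 bases before to 50 bases after the start of a transcript), 4 of the 5 genes had 5 windows, 2 of them of Dennd2c. A single copy of the p53 consensus motif was found in 1 of these 5 windows, that of Rap2b, and in 8.36% of all 32851 windows. The motif reads the same on both strands. A pair of motifs 0 to 13 bases apart was in none of the 5 and in 0.0731% of all windows. The match in Rap2b lies 34 to 43 bases after the start, at chr3:61364530-61364556 with its flanks on the plus strand, and is shown with the motif in capitals because Rap2b is one of the 2 genes whose reading turns on the p53-/- labels.
Rap2b: gcgacgtactGGGCATGCTCggctggg
The match is a description of these letters, and binding was not measured here.

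Values are log2 signals that the authors normalized with RMA, a method that subtracts background, equalizes the distributions of the arrays and combines the probes of a probe set into a single value. The array medians lay between 4.35 and 4.46, and the precision of each mean is limited by how few arrays it holds. The 5 genes are read by 9 probe sets. Rap2b has 4 and Slc19a2 has 2, and the probe set with the highest mean over the 28 arrays stands for each gene unless another is named. A log2 value compares a gene with itself across arrays and not with another gene. By lys, a bacterial control transcript spiked into the samples, the arrays fell into sets. It read 4.97 to 5.94 in replicates 1 and 2 and 3.01 to 4.15 in replicates 3 and 4. On the 4 Doxo arrays it read 4.15 to 4.44. The ranges of replicates 3 and 4 and of the Doxo arrays touch, and the labels name no batch. Most fibroblast markers were high. Vim, Fn1, Col3a1, Thy1 and Col1a1 lay at the 97.9 to 99.9 percentile of all probe sets, but Col1a2 and Pdgfra at the 60.9 and 67.1 percentile. Of leukocytes, endothelium, epithelium, neurons and muscle, 12 markers lay at the 20.6 to 80.0 percentile. No marker of either kind changed in p66-/- cells after H2O2 or between genotypes in the tests below. Cdkn1a, the p53-induced inhibitor of the cell cycle, averaged 6.64 and 7.65 on the p53-/- arrays labelled H2O2 and untreated and 10.49 in untreated WT cells. The named probe set of Shc1 averaged 8.39 in untreated p66-/- cells and 7.85 in untreated WT cells, and it does not check the deletion because the shorter Shc1 proteins share it.

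The fold changes that the study tabulated for p53-/- cells run in the opposite direction to the labels of its p53-/- arrays. Values of p53-/- cells are given here by the labels. Gadd45a, a growth arrest gene of the stress response, also ran in opposite directions in the p53-/- and WT arrays by the labels. It averaged 6.57 ± 0.27 on p53-/- arrays with the label H2O2 and 9.62 ± 0.32 on p53-/- arrays with the label untreated, while it averaged 9.90 ± 0.36 in H2O2-treated WT cells and 6.69 ± 0.41 in untreated WT cells (SD, n = 4 each). With the p53-/- labels exchanged, the response to H2O2 was lower in p53-/- than in WT cells at 9 of 45037 probe sets (adjusted p under 0.05), or 0.0200%, and none was higher. The 5 genes supplied 5 of these 9 probe sets, Phlda3 and Gtse1, both p53 targets, supplied 1 each, and no single symbol names the other 2. The difference in response, p53-/- minus WT, was -2.98 for Csrnp2, -1.86 for Dennd2c, -1.68 for Slc19a2, -1.48 for Rap2b and -1.19 for Trim11 on the log2 scale. Trim11, with a standard error of 0.20, was the last inside the threshold, and Zmat3, a p53-induced RNA-binding protein with -1.05 and a standard error of 0.20, the first outside. As these values chose the genes, they are a description and were not tested, as were the changes after H2O2 in p53-/- and WT cells and every comparison with untreated WT cells alone.

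Slc19a2, the thiamine transporter, was the gene with the lowest p53-/- levels relative to WT. It read 7.04, 6.97, 6.80 and 6.77 with the label H2O2 and 7.16, 7.09, 6.87 and 6.48 with the label untreated in p53-/- cells. The p66-/- values were 8.74, 9.88, 9.26 and 9.26 with H2O2, 9.48 and 9.23 with Doxo, and 8.49, 8.27, 8.28 and 8.39 untreated. In WT cells it read 10.03, 10.44, 9.64 and 10.09 with H2O2, 9.56 and 9.19 with Doxo, and 8.48, 8.32, 8.30 and 8.35 untreated. All 8 p53-/- arrays lay below every other array, and the p53-/- groups overlapped each other, with a change after H2O2 of -0.01 by the labels (standard error 0.18) and of 0.01 with the labels exchanged. The change was 1.69 in WT cells (standard error 0.18). From high to low, the order of the group means was WT with H2O2 (10.05), WT with Doxo (9.37), p66-/- with Doxo (9.35), p66-/- with H2O2 (9.29), untreated p66-/- (8.36), untreated WT (8.36) and both p53-/- groups (6.90 each). Neighbours overlapped in range among the Doxo and p66-/- H2O2 groups, between untreated p66-/- and WT cells and between the p53-/- groups. A second Slc19a2 probe set, of low signal (4.4 on average), differed by -0.21 in p53-/- cells by the labels and by 0.79 in WT cells after H2O2.

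Dennd2c, the DENN-domain protein, had its highest values in treated WT and p66-/- cells and its lowest in p53-/- cells. It read 4.18, 3.90, 4.19 and 4.10 with the label H2O2 and 3.99, 3.80, 3.72 and 4.02 with the label untreated in p53-/- cells. Among p66-/- cells it read 4.57, 5.45, 5.34 and 5.64 with H2O2, 6.38 and 5.82 with Doxo, and 4.53, 4.56, 4.15 and 4.43 untreated. In WT cells it read 5.74, 6.18, 6.03 and 6.53 with H2O2, 6.15 and 5.74 with Doxo, and 4.47, 4.5, 4.45 and 4.47 untreated. The p53-/- group means (4.09 labelled H2O2, 3.88 labelled untreated) lay at the 44.5 and 38.0 percentile of all probe sets, near or under the middle of the array, and those of WT cells at the 72.2 percentile with H2O2 and the 51.5 percentile untreated. The change after H2O2 was 0.21 in p53-/- cells by the labels (standard error 0.18) and 1.65 in WT cells (standard error 0.18). WT cells with H2O2 averaged 6.12 and both Doxo groups 6.10 and 5.94, with overlapping ranges, and the untreated p66-/- and WT groups overlapped as well. The p53-/- groups overlapped each other. Those labelled H2O2, with a highest array of 4.19, also overlapped untreated p66-/- cells, whose lowest array read 4.15.

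Trim11, the ubiquitin ligase, had its highest values with Doxo. It read 6.06, 6.06, 5.89 and 6.11 with the label H2O2 and 5.78, 5.96, 5.94 and 5.79 with the label untreated in p53-/- cells. Without p66 it read 6.55, 7.18, 6.87 and 6.92 with H2O2, 8.18 and 7.84 with Doxo, and 6.17, 6.30, 6.35 and 6.5 untreated. In WT cells it read 6.82, 7.54, 7.39 and 7.67 with H2O2, 8.01 and 7.89 with Doxo, and 6.35, 6.09, 6.40 and 6.46 untreated. The Doxo arrays of both genotypes lay above all others (means 8.01 in p66-/- and 7.95 in WT cells), the H2O2 groups of p66-/- (6.88) and WT cells (7.35) overlapped each other and lay above the untreated groups (6.33 each), and the p53-/- arrays labelled H2O2 overlapped in range with untreated WT cells by a single array on each side. The change after H2O2 was 0.17 in p53-/- cells by the labels (standard error 0.14) and 1.03 in WT cells (standard error 0.14).

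Csrnp2, the nuclear protein, gave 2 different accounts according to the p53-/- labels. It read 7.02, 7.43, 7.22 and 7.21 with the label H2O2 and 5.02, 6.44, 5.51 and 6.00 with the label untreated in p53-/- cells. The p66-/- arrays read 7.17, 7.92, 7.95 and 7.88 with H2O2, 8.70 and 8.83 with Doxo, and 7.40, 6.41, 7.42 and 7.37 untreated. In WT cells it read 8.0, 8.49, 8.51 and 8.72 with H2O2, 8.66 and 8.66 with Doxo, and 6.70, 6.54, 7.15 and 7.34 untreated. By the labels Csrnp2 was higher with H2O2 in p53-/- cells by 1.48 (standard error 0.26) and in WT cells by 1.5 (standard error 0.26), and the difference between the 2 responses was -0.02 (standard error 0.37). With the labels exchanged the p53-/- value becomes -1.48. Of the arrays labelled H2O2, 3 lay in the range of untreated WT cells and 1 above it, whereas all 4 arrays labelled untreated lay below it. The means ran from p66-/- with Doxo (8.76) over WT with Doxo (8.66), WT with H2O2 (8.43), p66-/- with H2O2 (7.73), p53-/- labelled H2O2 (7.22), untreated p66-/- (7.15) and untreated WT (6.93) to p53-/- labelled untreated (5.74). Neighbours in this order did not overlap between the Doxo groups, between WT and p66-/- cells with H2O2 and before the lowest group.

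Rap2b, the small GTPase, likewise depended on the p53-/- labels. It read 7.21, 7.16, 7.19 and 7.35 with the label H2O2 and 5.80, 6.73, 6.13 and 6.31 with the label untreated in p53-/- cells. The readings without p66 were 7.52, 8.03, 7.84 and 7.59 with H2O2, 8.47 and 8.09 with Doxo, and 7.32, 7.41, 7.57 and 7.64 untreated. In WT cells it read 7.46, 8.44, 7.95 and 8.17 with H2O2, 8.59 and 8.24 with Doxo, and 7.49, 7.45, 7.63 and 7.48 untreated. WT replicate 1 with H2O2 lay within the untreated WT range, while the other 3 lay above it. The change after H2O2 was 0.99 in p53-/- cells by the labels (standard error 0.18), -0.99 with the labels exchanged, and 0.49 in WT cells (standard error 0.18). In the order of means, every group overlapped the next, from WT with Doxo (8.41) down to p53-/- labelled H2O2 (7.23), and only the p53-/- arrays labelled untreated (6.24) stood apart. The other Rap2b probe sets differed from the first in WT cells. Their changes after H2O2 were 0.78, 0.85 and 0.26 in p53-/- cells by the labels and 0.28, -0.48 and -0.13 in WT cells, at average signals of 6.73, 5.41 and 3.26, the last of these near the bottom of the scale, at the 13.3 to 23.6 percentile in every group.

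**Figure D1:**
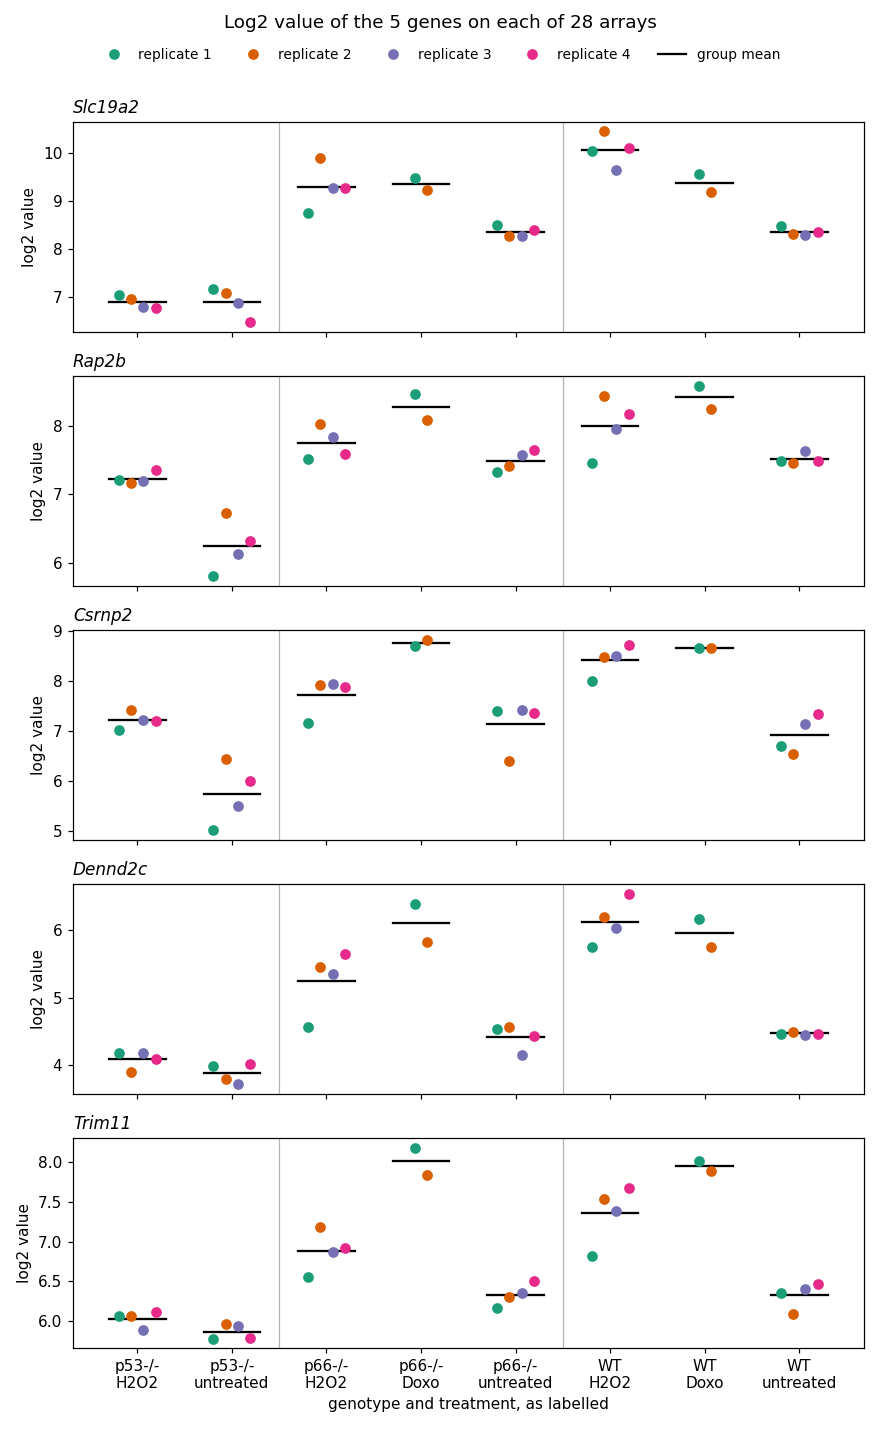
Log2 value (vertical axis) of the representative probe set of each gene on every array (points, coloured by replicate number) with the group mean (line), by genotype and treatment as labelled. The p53-/- arrays of Slc19a2 all lie below the other arrays, those of Csrnp2 and Rap2b separate by treatment label, and replicate 1 of p66-/- cells with H2O2 is the lowest array of its group for all 5 genes.

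Whether the 5 genes responded to H2O2 without p66 was tested in p66-/- cells, whose arrays had no part in the choice of the genes. All 5 group means were higher with H2O2, but at an adjusted p under 0.05 from limma 0 of the 5 genes rose, where 8 of all 45037 probe sets (0.0178%) did. Slc19a2 averaged 9.29 ± 0.47 with H2O2 and 8.36 ± 0.10 untreated (SD, n = 4 each), a log2 difference of 0.93 (standard error 0.18, adjusted p = 0.089). Dennd2c averaged 5.25 ± 0.47 with H2O2 and 4.42 ± 0.19 untreated, a difference of 0.83 (standard error 0.18, adjusted p = 0.15), and for Trim11 the difference was 0.55 (standard error 0.14, adjusted p = 0.32). For Csrnp2 it was 0.58 (standard error 0.26, adjusted p = 1.0) and for Rap2b 0.26 (standard error 0.18, adjusted p = 1.0). At an unadjusted p under 0.05 stood 4 of the 5, all but Rap2b, and 1988 of all probe sets. The median of the 5 was 0.58, and that of all probe sets -0.01. Without overlap between the groups, 3 of the 5 genes, Slc19a2, Dennd2c and Trim11, had every H2O2 array above every untreated one (exact permutation, two-sided, p = 0.029, which is the minimum for 4 arrays against 4, among 9 probe sets tested). The same held for 543 of all probe sets, or 1.21%. The second Rap2b probe set also had its H2O2 arrays above the untreated ones, by 0.72, and the weakest one had them below, by 0.20 (exact permutation p = 0.029 each), so that the probe sets of Rap2b disagree in direction. Replicate 1 with H2O2 decided the calls. Without it Slc19a2 rose by 1.11 (adjusted p = 0.0040) and Dennd2c by 1.06 (adjusted p = 0.0029), and 94 probe sets changed in all. The replicate number as a block fits a shared effect of each number over all genotypes and treatments, which is no pairing within p66-/- cells. With this block Slc19a2 rose (0.93, adjusted p = 0.046), with 46 probe sets called in all. Within array sets, the Slc19a2 difference was 0.93 in replicates 1 and 2 and 0.93 in replicates 3 and 4, and that of Dennd2c was 0.47 and 1.20 in the same sets. Replicates 1 and 2 of Slc19a2 were unlike. It read 8.74 with H2O2 and 8.49 untreated in replicate 1, and 9.88 and 8.27 in replicate 2.

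Side by side with WT cells, the change after H2O2 in p66-/- cells was smaller at the representative probe set of each gene. It was 0.93 in p66-/- and 1.69 in WT cells for Slc19a2, 0.83 and 1.65 for Dennd2c, 0.58 and 1.5 for Csrnp2, 0.55 and 1.03 for Trim11, and 0.26 and 0.49 for Rap2b. The difference of the 2 changes, p66-/- minus WT, was between -0.92 (Csrnp2, standard error 0.37) and -0.23 (Rap2b, standard error 0.25). At the Rap2b probe sets with average signals of 6.73 and 5.41 it ran the other way, with 0.44 (standard error 0.46) and 0.27 (standard error 0.22). The WT change took part in choosing the genes, which makes this a description without a test.

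Genotype was then compared over untreated and H2O2-treated cells together, which gives the same value under either reading of the p53-/- labels. It is computed from the arrays that chose the genes, and the selected response is a part of it, so that the values of the 5 genes are a description here and no test is given for them. All 5 lay among the 276 of 45037 probe sets called lower in p53-/- than in WT cells (0.613%), and nothing is read from this count. Slc19a2 was 4.95-fold lower, with a log2 difference of -2.31 (standard error 0.13, 8 arrays of each genotype). Dennd2c differed by -1.31 (standard error 0.13), Csrnp2 by -1.20 (standard error 0.19), Rap2b by -1.02 (standard error 0.13) and Trim11 by -0.89 (standard error 0.10). The median of the 5 was -1.20, and that of all probe sets 0.00. The second Slc19a2 probe set differed by -0.76, and the other 3 of Rap2b by -0.71, -0.41 and -0.11. In replicates 1 and 2 alone the differences of Csrnp2, Rap2b and Trim11 were -0.96, -0.99 and -0.74.

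How the averaged difference divides between treated and untreated cells depends on the p53-/- labels for Csrnp2 and Rap2b. For cells with H2O2 alone, p53-/- minus WT, Csrnp2 differed by -1.21 by the labels and by -2.69 with the labels exchanged. Rap2b differed by -0.78 and -1.76 in the same order. Slc19a2 differed by -3.15 under both readings, Dennd2c by -2.03 and -2.24, and Trim11 by -1.32 and -1.49. For untreated cells alone, p53-/- minus WT, Slc19a2 differed by -1.46 by the labels and by -1.47 with the labels exchanged. Dennd2c differed by -0.59 and -0.38, and Trim11 by -0.46 and -0.29, in the same order of readings. Csrnp2 differed by -1.19 by the labels and by 0.29 with the labels exchanged, and Rap2b by -1.27 and -0.28. The untreated differences of Slc19a2, Dennd2c, Trim11 and Rap2b were thus negative under both readings, and for Csrnp2 the sign itself turned. With the labels exchanged, those of Dennd2c, Trim11 and Rap2b were small beside that of Slc19a2. The other Rap2b probe sets then differed by -0.18 (standard error 0.33), -0.23 (standard error 0.16) and -0.04 (standard error 0.06). The 2 readings were closest for Slc19a2. Standard errors at the representative probe sets were 0.18 for Slc19a2, Dennd2c and Rap2b, 0.14 for Trim11 and 0.26 for Csrnp2. These values use the arrays that chose the genes and carry no test.

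Over the same 2 conditions, p66-/- cells were compared with WT cells. The WT arrays of this comparison took part in choosing the genes, so that the values of the 5 genes are again a description. At an adjusted p under 0.05 in limma, 2 of all probe sets were lower in p66-/- cells (0.00444%). None of the 5 genes was among them, and nothing is read from this. The differences were -0.46 for Dennd2c (standard error 0.13), -0.38 for Slc19a2 (standard error 0.13), -0.24 for Csrnp2, -0.23 for Trim11 and -0.14 for Rap2b. Their median was -0.24, and that of all probe sets -0.03. The second Slc19a2 probe set differed by -0.41, and the other Rap2b probe sets by -0.67, 0.13 and -0.05. Without H2O2 the groups were close at the representative probe sets. Untreated p66-/- minus untreated WT cells was 0.22 for Csrnp2 and between -0.06 and 0.00 for the other 4, whereas p66-/- minus WT cells with H2O2 was between -0.87 (Dennd2c) and -0.26 (Rap2b). The second Rap2b probe set differed by -0.89 in untreated cells and by -0.46 with H2O2 (standard error 0.33 each). The second of Slc19a2 differed by -0.20 and -0.63 (standard error 0.14 each).

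**Figure D2:**
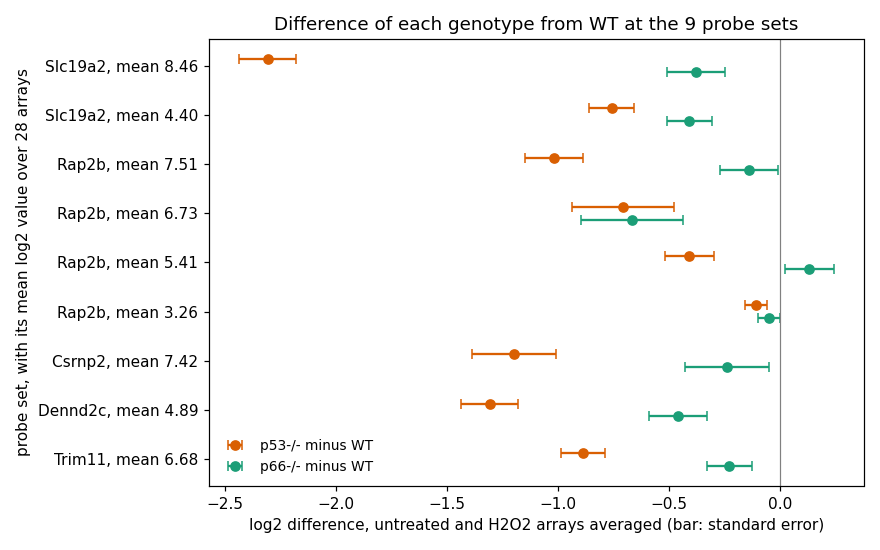
Log2 difference from WT cells (horizontal axis, bars are standard errors), averaged over untreated and H2O2-treated arrays, of p53-/- cells and of p66-/- cells at each of the 9 probe sets, which are named by gene and mean log2 value. The p53-/- difference of Slc19a2 is the largest, at -2.31, and that of the weakest Rap2b probe set the smallest, at -0.11.

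Doxo, which traps topoisomerases on DNA and breaks its strands, served as a second damaging agent. All 5 genes rose after Doxo in p66-/- cells, where 26.6% of all probe sets rose, so that a rise by itself sets them little apart. By lys alone the Doxo arrays may be an array set of their own, in which case drug and array set cannot be told apart. Of the markers of cell types, 3 of 8 for fibroblasts and 2 of 12 for other cells changed as well. Between Doxo and H2O2, 3 and 3 did. In either direction, 18335 of all 45037 probe sets changed after Doxo in p66-/- cells, and 20598 differed between Doxo and H2O2. The marker counts are not called apart from these shares, and the part of the markers in the result was not tested. Trim11 averaged 8.01 ± 0.24 with Doxo (SD, n = 2) and 6.33 ± 0.14 untreated (SD, n = 4), a 3.21-fold rise (log2 difference 1.68, standard error 0.18, adjusted p = 6.1e-07 from limma). Dennd2c rose by 1.68 (standard error 0.23, adjusted p = 8.5e-06), Csrnp2 by 1.61 (standard error 0.32, adjusted p = 0.00057), Slc19a2 by 0.99 (standard error 0.23, adjusted p = 0.0016) and Rap2b by 0.80 (standard error 0.22, adjusted p = 0.0067). Their median was 1.61, and that of all probe sets 0.15. For each of the 5 genes both Doxo arrays lay above all 4 untreated arrays, for which an exact permutation test of 2 arrays against 4 can give no p below 0.067. The Rap2b call was lost without Doxo replicate 1 (0.61, adjusted p = 0.11). The second Rap2b probe set rose as well (1.09, adjusted p = 0.035), the second of Slc19a2 had a difference of 0.43 (adjusted p = 0.057), and the 2 others of Rap2b had differences of 0.02 and 0.10. In WT cells the differences after Doxo, given without a test, were 1.73 for Csrnp2, 1.63 for Trim11, 1.47 for Dennd2c, 1.01 for Slc19a2 and 0.90 for Rap2b.

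Between p66-/- and WT cells with Doxo, 0 of the 5 genes and 0 of all probe sets (0%) differed at an adjusted p under 0.05 from limma, while 1570 probe sets had an unadjusted p under 0.05. The differences were 0.15 for Dennd2c (standard error 0.26), 0.10 for Csrnp2 (standard error 0.37), 0.06 for Trim11 (standard error 0.20), -0.02 for Slc19a2 (standard error 0.26) and -0.13 for Rap2b (standard error 0.25). With 2 arrays in each group, differences of the size of these standard errors were not detectable. The second Rap2b probe set read 7.51 and 6.63 in p66-/- cells and 8.56 and 8.59 in WT cells with Doxo, a difference of -1.5 that did not pass (standard error 0.46, adjusted p = 1.0).

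Set directly against H2O2 in p66-/- cells, Doxo gave higher levels of 4 of the 5 genes, and of 30.4% of all probe sets. Trim11 was higher with Doxo by 1.13 (standard error 0.18, adjusted p = 4.7e-05 from limma), Csrnp2 by 1.04 (standard error 0.32, adjusted p = 0.013), Dennd2c by 0.85 (standard error 0.23, adjusted p = 0.0047) and Rap2b by 0.54 (standard error 0.22, adjusted p = 0.049). Slc19a2 differed by 0.07 (standard error 0.23, adjusted p = 0.82). The median of all probe sets was 0.17. Of the 4, Trim11 alone passed without Doxo replicate 1, and Trim11 and Dennd2c without Doxo replicate 2, where a lone Doxo array is assumed to vary like the other groups. Rap2b also failed without replicate 1, 3 or 4 of the H2O2 arrays (adjusted p = 0.11, 0.053 and 0.094). In WT cells, Slc19a2 averaged 9.37 with Doxo and 10.05 with H2O2, and its ranges did not overlap, while Trim11 averaged 7.95 with Doxo and 7.35 with H2O2. These WT values are a description, as the WT arrays with H2O2 took part in choosing the genes.

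**Figure D3:**
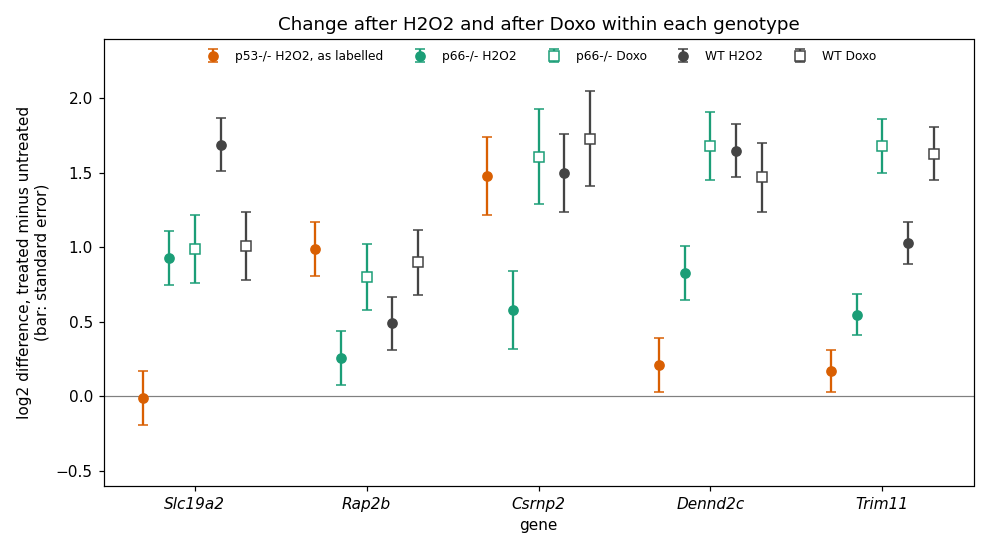
Log2 difference between treated and untreated arrays of the same genotype (vertical axis, bars are standard errors) for each gene after H2O2 (filled circles) and Doxo (open squares). In p66-/- cells the H2O2 values lie between 0.26 and 0.93 and the Doxo values between 0.80 and 1.68, and in p53-/- cells, by the labels, only Csrnp2 and Rap2b lie far above 0.

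The 35 measured genes of a list of 38 known p53 targets placed the 5 genes among others. After H2O2 in p66-/- cells 1 of the 35 rose and 0 fell, and their median was 0.34. This was Gadd45a, which averaged 9.25 ± 0.87 with H2O2 and 6.68 ± 0.39 untreated (SD, n = 4 each), a difference of 2.58 (adjusted p = 0.0011 from limma). Mdm2, the ligase that removes p53, had a difference of 1.19 (adjusted p = 0.24), the stress protein Sesn2 one of 0.95 (adjusted p = 0.089) and the phosphatase Ppm1d one of 0.80 (adjusted p = 0.24). After Doxo 14 of the 35 rose and 3 fell, where 26.6% of all probe sets rose and 14.1% fell, and relative to H2O2 Gadd45a and Mdm2 were lower with Doxo (-2.60 and -1.83). Over both conditions 21 of the 35, against 0.613% of all probe sets, were lower in p53-/- than in WT cells and 0 were higher, with a median of -0.83, and Cdkn1a differed by -3.98.

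In the lists of genes that work with, or resemble, the 5 genes 2 of 50 measured genes differed between p53-/- and WT cells, where 1.04% of all probe sets did. The counts after Doxo below stand beside the same 26.6% of all probe sets that rose and 14.1% that fell, and no list is called apart from these shares. Of 8 measured genes of thiamine handling none differed between p53-/- and WT cells. After Doxo in p66-/- cells 4 of them rose and 1 fell, among them Bckdha, an enzyme of branched-chain amino acid breakdown that uses thiamine (1.57), Tkt, the transketolase (0.68), and Pdha1 of pyruvate dehydrogenase (-1.08). Of 15 genes of Rap signalling 5 rose and 6 fell after Doxo. The close relative Rap2c fell to 4.47 ± 0.06 with Doxo (SD, n = 2), against 7.82 ± 0.69 untreated (SD, n = 4), the exchange factor Rapgef2 fell by 2.06 and the Rap2 effector kinase Tnik differed by -2.59. In p53-/- cells 1 of the 15, Rap2a, was lower than in WT cells (-0.59, adjusted p = 0.0014 from limma), a gene named here after its value was seen.

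Of 15 genes for DENN proteins and Rab9, none differed between p53-/- and WT cells, and 3 rose and 5 fell after Doxo in p66-/- cells, with Dennd4c at -3.14, Dennd1b at -2.07 and Rab9 at -0.89. Neither Csrnp1 nor Csrnp3 passed in any comparison tested. Of 10 TRIM ligases 1, Trim7, was lower in p53-/- than in WT cells (-0.75, adjusted p = 0.0072 from limma). Trim7 also rose after Doxo in p66-/- cells, to 6.54 ± 0.61 (SD, n = 2), against 4.29 ± 0.06 untreated (SD, n = 4), while 4 of the 10 rose and 2 fell, among them Trim8 with a difference of 0.53 and Trim39 with -0.83. None of the genes in these 5 lists passed in p66-/- cells after H2O2.

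Across the 28 arrays the 5 genes moved together. Pearson's r between them was between 0.772 (Csrnp2 with Slc19a2) and 0.938 (Dennd2c with Trim11), a description, as the arrays share groups and preparations and the genes were chosen on them. Among all other named genes, Slc19a2 was most like Eda2r (r = 0.949), Ccng1 (0.943) and Cdkn1a (0.942). Trim11 was most like 1700007K13Rik (0.966), Ddit4l (0.963) and Rprm (0.962), and Dennd2c like A930007A09Rik (0.946), Trim11 (0.938) and Ddit4l (0.937). Csrnp2 was most like Gtse1 (0.934), Rap2b (0.920) and Trim11 (0.877), and Rap2b like Phlda3 (0.920), Csrnp2 (0.920) and Notch1 (0.912).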

How the data were processed

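The authors normalized 28 Affymetrix arrays with RMA in Partek 6.5, per the submitters' notes, and deposited log2 values between 1.95 and 13.47. Control probe sets (104) were left out. A group-means model with 8 groups was fitted at 45037 probe sets (limma 3.58.1, R 4.3.3), with Benjamini-Hochberg adjustment over all of them, and calls are adjusted p under 0.05. A single symbol named 28898 probe sets. The fit was tested on simulated data. Named genes are every probe set of the 5 genes, up to 4 p53 targets with the lowest p in p66-/- cells after H2O2, up to 3 called genes of each other list, and genotype checks. The genes and lists were chosen with earlier results of these data known. Old symbols were matched through RefSeq synonyms. Deviations from group means correlated between same-numbered treated and untreated arrays at 0.51 to 0.75 for H2O2 and at -0.08 to 0.05 for Doxo. For p66-/- cells with H2O2, replicates 3 and 4 correlated as well with an untreated array of another number (0.705 and 0.667, against 0.69 and 0.66). Pairs and shared array sets thus cannot be told apart there. The main fit and the permutation tests did not pair arrays. Permutation tests used SciPy 1.17.1. Alternatives were a plain test, the compared groups alone, the thresholds of the study (unadjusted p under 0.05, at least 1.5-fold), the replicate block, a filter on low values, another quantile normalization, untreated WT cells as reference, any probe set of a gene, each array left out, separate array sets and exchanged p53-/- labels.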

Additional observations from a re-analysis of the deposited data

Results flagged for a closer look

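Of 54 groups of 4 arrays examined over the 9 probe sets, 4 held an array far from the other 3, where chance gives about 1 in 20 groups. Csrnp2 read 7.17 in replicate 1 of p66-/- cells with H2O2, against 7.88 to 7.95 in the others, and 6.41 in replicate 2 of untreated p66-/- cells, against 7.37 to 7.42. Without these arrays, one at a time, its difference after H2O2 in p66-/- cells was 0.76 and 0.33. The second Rap2b probe set read 6.25 in replicate 1 of WT cells with H2O2, against 7.32 to 7.52. The weakest Rap2b probe set read 3.31 in replicate 2 of the same group, against 3.18 to 3.20.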

How the results depend on the processing

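For p53-/- against WT, the count of 5 called genes became 2 in replicates 1 and 2 alone and stayed 5 under each other alternative run. These are the arrays that chose the genes, so that nothing is read from this count. In p66-/- cells after H2O2, the count of 0 called genes became 1 with the replicate block, 2 at the thresholds of the study and 1 in replicates 3 and 4 alone, and 0 to 2 with single arrays left out. After Doxo, the count of 5 became 3 under the plain test and 4 to 5 with single arrays left out. For Doxo against H2O2, the count of 4 became 1 under the plain test, 2 in the compared groups alone and 1 to 4 with single arrays left out. There the Slc19a2 difference was -0.03 with the replicate block and -0.11 to 0.27 with single arrays left out. Between p66-/- and WT cells with Doxo, differences turned sign with single arrays left out, at -0.13 to 0.43 for Dennd2c, -0.32 to 0.06 for Rap2b, -0.20 to 0.17 for Slc19a2 and -0.11 to 0.23 for Trim11. Exchanging the p53-/- labels turned the changes after H2O2 to -1.48 for Csrnp2, -0.99 for Rap2b, -0.21 for Dennd2c, -0.17 for Trim11 and 0.01 for Slc19a2 (median -0.21). The cause of these changes was not tested, but the exchange turns signs by construction. Beyond the calls given in the report, the replicate block changed no call of the 5 genes. Over all probe sets, the block gave 46 calls in place of 8 for H2O2 in p66-/- cells, 1906 in place of 470 for p53-/- against WT and 49 in place of 2 for p66-/- against WT. The thresholds of the study gave 409, 517 and 311 for the same 3 comparisons, replicates 3 and 4 alone 114, 598 and 192, replicates 1 and 2 alone 0, 920 and 1, the compared groups alone 0, 332 and 0, the plain test 0, 212 and 0, and the filter on low values 14, 508 and 1, while with single arrays left out they ranged over 1 to 94, 258 to 578 and 1 to 76. For Doxo in p66-/- cells the plain test gave 5953 calls in place of 18335, and the thresholds of the study 11137, and for Doxo against H2O2 they gave 12199 and 12152 in place of 20598. Between p66-/- and WT cells with Doxo, the thresholds of the study gave 50 and the compared groups alone 4, in place of 0. Leaving out a Doxo array leaves 1 in its group, assumed to vary like the others. Signals near the bottom of the scale, as for the weakest Rap2b probe set, limit what can be read there.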
